A study of Mus musculus with 8 samples.

Results

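The genes described here are the nuclear genes of mitochondrial complex I, measured as mRNA in mouse skeletal muscle with and without the enzyme Acot2. They were chosen by name: every row of the deposited expression table whose gene symbol begins with Nduf, with 1 pseudogene row left out. That gave 44 genes of the 27189 with a value above 0. Of these, 35 encode subunits of complex I, 7 encode assembly factors (Ndufaf1 to Ndufaf7), and 2 carry the name for other reasons (Ndufa4 and its paralog Ndufa4l2). Ndufb1, Ndufb4 and Ndufaf8 had no row and were not analysed here.

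The muscle was white quadriceps of male mice aged 11 to 14 weeks, taken in the morning after 7 days on a diet with 60% fat. In the 4 Cre libraries (replicates 5 to 8) the mice carried Cre recombinase driven by the muscle creatine kinase promoter (CKM), which removed Acot2 in muscle. The 4 Loxp libraries (replicates 1 to 4) came from control mice with the same floxed Acot2 gene and no Cre. All mice ate the high-fat diet, and since Cre was present only in the knockout, the presence of Cre and the loss of Acot2 cannot be told apart. Whether each library stands for its own animal is not in the labels, and the spread behind the p-values below is that of these 8 libraries.

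Complex I, NADH:ubiquinone oxidoreductase, is the entry point of the respiratory chain: it takes electrons from NADH, passes them along a flavin and a row of iron-sulfur clusters to ubiquinone, and pumps protons across the inner mitochondrial membrane. Its peripheral arm, in the matrix, holds the NADH and ubiquinone sites, and its membrane arm holds the proton pumps. A set of core subunits does the chemistry and is shared with bacteria, accessory subunits surround it, and assembly factors help to build it and are absent from the finished enzyme. Acot2 is a mitochondrial thioesterase that releases fatty acids from their long-chain CoA esters, so it acts beside fatty acid oxidation, which supplies NADH to complex I.

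Acot2 had 325, 273, 256 and 354 normalized counts in Cre replicates 5 to 8, against 2179, 3348, 4165 and 2166 in Loxp replicates 1 to 4. Every Cre library was below every Loxp library, so this gene matched the labels (log2 difference Cre minus Loxp -3.24 ± 0.20 SE, adjusted p = 4.72e-06, limma with Benjamini-Hochberg adjustment over 15657 genes). Here and below a normalized count is a read count divided by a size factor for its library, and differences and deviations are on the log2(normalized count + 1) scale. The reads per library, recovered from the deposited values, ranged between 55284020 and 74996035 in Cre and between 70275630 and 109101280 in Loxp. Loxp replicates 3 and 4 stood apart from the other 6 libraries. On the first principal component of all tested genes, which held 34.5% of the variance, they were at -55.2 and -56.1, and the others lay between -0.56 and 38.6. In these 2 libraries short transcripts were lower and long transcripts higher than in the rest, so the differences below are also given without them. Markers of fast fibres made up 13.6% to 15.4% of all normalized counts in Cre and 12.2% to 14.2% in Loxp, with Myh4, the myosin of the fastest fibres, among them. This sum hides markers that went both ways. Of the 9, 5 had an estimate above 0 (50.3% of tested genes) and 4 below, between 0.81 for Pvalb and -0.36 for Atp2a1, with Myh4 at -0.23. At an unadjusted p under 0.05 (limma), 3 were higher (13.6% of tested genes) and 2 lower (13.3%).

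The promoters of 38 of the 44 genes were in the RefSeq promoter table for GRCm38.p6 (31 subunits, 6 assembly factors and Ndufa4), which spans 250 bases before to 50 bases after the start of the gene. They were searched on both strands for short motifs of factors known from mammalian respiratory-chain genes. The motif AAGATGGC, a form bound by YY1, was in 7 of 31 subunit promoters (22.6%), in 0 of 6 assembly factor promoters and in 4.81% of the promoters of tested genes. In all 7 it lay on the gene's own strand, between 23 and 39 bases after the start, and in all 7 its ATG was the annotated start codon of the gene. The start meant here is that of the RefSeq promoter table, which can lie inside the longer gene annotated by GENCODE, as for Ndufs7 and Ndufs4, from which the gene coordinates below are taken. The 7 stretches of 30 bases are shown because they place one motif at the same landmark in genes of both arms of the enzyme; capitals mark the motif, and all run 5′ to 3′ on the gene's strand.
Ndufs7, core subunit (chr10:80249462-80249491, + strand): aggccgaggccAAGATGGCggcgctggcgg
Ndufa9, peripheral arm (chr6:126849097-126849126, - strand): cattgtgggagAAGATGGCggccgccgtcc
Ndufs4, peripheral arm (chr13:114388045-114388074, - strand): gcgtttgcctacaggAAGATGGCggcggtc
Ndufs6, peripheral arm (chr13:73328433-73328462, - strand): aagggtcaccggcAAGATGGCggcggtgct
Ndufa3, membrane arm (chr7:3617384-3617413, + strand): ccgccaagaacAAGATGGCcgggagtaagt
Ndufb8, membrane arm (chr19:44555393-44555422, - strand): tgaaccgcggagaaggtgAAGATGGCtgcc
Ndufc1, membrane arm (chr3:51408915-51408944, - strand): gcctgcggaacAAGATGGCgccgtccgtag

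The palindrome bound by NRF1, GCGCA followed directly by its reverse complement TGCGC, was in 1 of 31 subunit promoters, 2 of 6 assembly factor promoters and 2.13% of the promoters of tested genes. These 3 windows are shown as the counterpart in the assembly factors, with the palindrome in capitals.
Ndufa11, membrane arm (chr17:56717692-56717721, + strand): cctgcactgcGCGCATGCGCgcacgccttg
Ndufaf4, assembly factor (chr4:24897960-24897989, + strand): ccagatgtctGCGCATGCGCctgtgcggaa
Ndufaf5, assembly factor (chr2:140170652-140170681, + strand): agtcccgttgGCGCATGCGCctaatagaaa

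The other 3 motifs searched had lower or only slightly higher shares in subunits than in tested genes. CCGGAAG, of the ETS factors that include GABPA, was in 4 of 31 subunit promoters (12.9%) and 18.4% of tested genes. AAGGTCA, of the oestrogen-related receptors, was in 2 of 31 (6.45%) against 4.04%. GGGCGG, of SP1, was in 14 of 31 (45.2%) against 66.1%. A match describes these letters in this window and does not show binding. The 7 subunits with AAGATGGC had a median log2 difference Cre minus Loxp of 0.50 (0.26 to 0.57), and the other 24 subunits with a promoter had 0.47 (0.00 to 0.77), and the ranges overlapped.

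No Nduf gene passed an adjusted p of 0.05 (limma, Benjamini-Hochberg; 0 of 44, against 0.00639% of the 15657 tested genes), and the estimates of the subunits lay almost all on one side. Of the 35 subunits, 34 had an estimate above 0 in Cre muscle, against 50.3% of tested genes. Their median log2 difference was 0.47 (-0.02 to 0.96), against a median of 0.003 for all tested genes. At an unadjusted p under 0.05, 32 of 35 subunits were higher in Cre (13.6% of tested genes) and 0 were lower (13.3% of tested genes). At an adjusted p under 0.1, 17 of 35 were higher (5.94% of tested genes). That count was 0 when Loxp 3, Loxp 4, Cre 6, Cre 7 or Cre 8 was left out alone (0 or 1 of 15657 tested genes). It was also 0 with plain eBayes (8 of 15657). It was 28 without Loxp 1 (1789 of 15657), 32 without Loxp 2 (1888 of 15657) and 17 without Cre 5 (873 of 15657). In 4 subunits, Ndufa5, Ndufb10, Ndufv3 and Ndufs5, all Cre libraries were above all Loxp libraries (6.06% of tested genes).

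The assembly factors had smaller estimates. Of 7, 6 had an estimate above 0 (50.3% of tested genes), with a median of 0.29 (-0.11 to 0.48). Ndufaf3 and Ndufaf5 were higher at an unadjusted p under 0.05 (13.6% of tested genes). Only in Ndufaf3 among the 7 did the groups not overlap (6.06% of tested genes were higher with no overlap). The difference between subunits and assembly factors was not tested, since the genes of each class share the same 8 libraries.

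The size of the estimates rested on Loxp replicates 3 and 4, and the count of subunits at an unadjusted p under 0.05 rested on several libraries. Without Loxp 3 and 4, 33 of 35 subunits still had an estimate above 0 (49.9% of tested genes), and the median was 0.15. Then 5 of 35 were higher at an unadjusted p under 0.05 (4.36% of tested genes): Ndufa5, Ndufb7, Ndufb10, Ndufb11 and Ndufb3. For the assembly factors the median was 0.08, with 5 of 7 above 0 and 0 at an unadjusted p under 0.05. Leaving out 1 of the other controls worked the opposite way: without Loxp replicate 1, 20 of the 44 genes passed an adjusted p of 0.05 (limma; 5.54% of tested genes were higher and past it), and without Loxp replicate 2, 23 did (6.54%). With weights for sample quality 15 did (3.79%).

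Single libraries moved the other counts too. At an unadjusted p under 0.05, 19 of 35 subunits were higher without Loxp 3 (8.4% of tested genes) and 21 without Loxp 4 (9.08%), Cre 7 (10.5%) or Cre 8 (9.32%). Subunits whose groups did not overlap numbered 22 without Cre 5 (12.0% of tested genes), 18 without Loxp 2 (11.0%) and 7 without Cre 6 (9.15%).

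**Figure D1:**
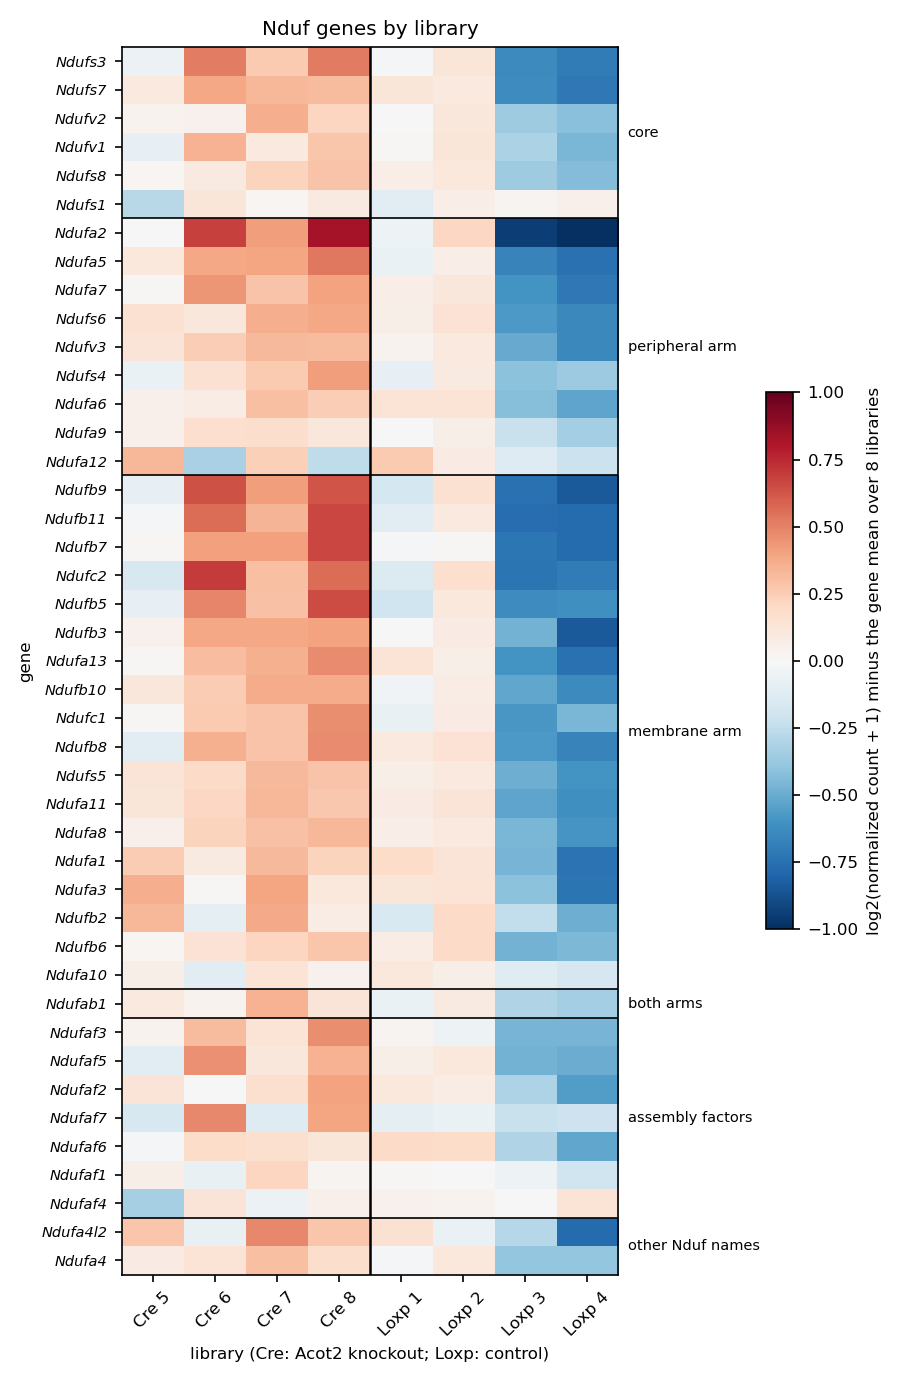
Deviation of Nduf genes (rows, grouped by role) from their own means over the 8 libraries (columns, Cre left of Loxp), in log2(normalized count + 1). Loxp replicates 3 and 4 are the blue columns at the right: they were the 2 lowest libraries in 33 of 35 subunits.

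The order of the libraries within each gene shows this pattern directly. In 33 of 35 subunits (94.3%) and 5 of 7 assembly factors (71.4%), Loxp 3 and 4 were below the other 6 libraries, against 21.6% of tested genes. Loxp 4 was the lowest library in 27 subunits (20% of tested genes) and Loxp 3 in 6 (15.8%). The highest library was always a Cre library: Cre 8 in 16 subunits (16.2% of tested genes), Cre 7 in 12 (10.3%), Cre 6 in 6 (14%) and Cre 5 in 1 (11.2%). All 4 Cre libraries were above Loxp 1 and 2 in 4 of 35 subunits (11.4%), against 8.74% of tested genes, a share near the background.

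Set against the 2 pairs of controls apart, the subunits had a median difference of 0.15 from Loxp 1 and 2 (-0.17 to 0.41) and of 0.80 from Loxp 3 and 4 (-0.05 to 1.52). Between the controls themselves, Loxp 3 and 4 minus Loxp 1 and 2, the median was -0.62 (-1.12 to 0.06), and 34 of 35 subunits were below 0, against 49.7% of tested genes. In median the gap within the control group was larger than the gap between Cre and the whole control group. These pairs are not groups of the study, and no test was made between them.

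**Figure D2:**
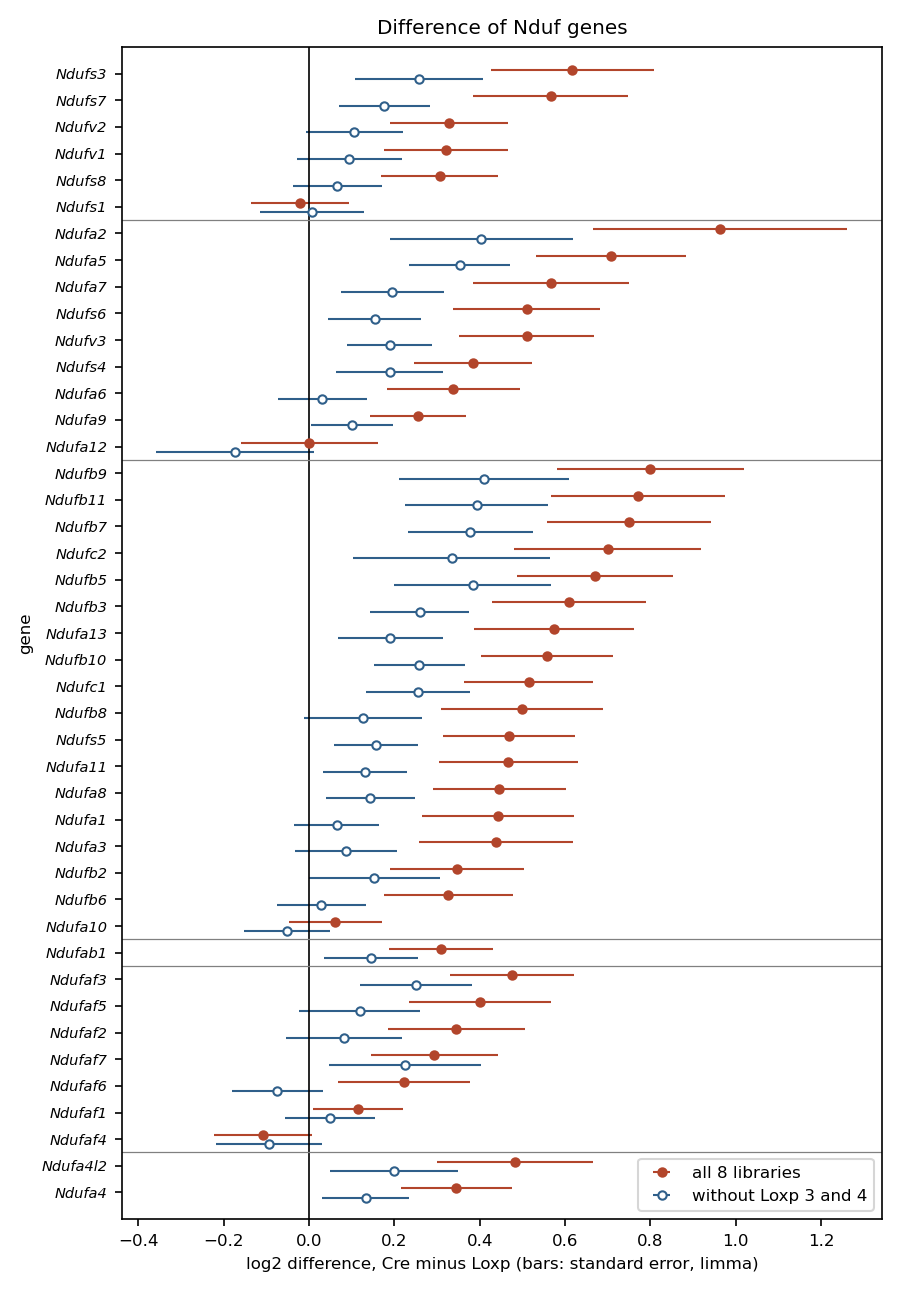
Log2 difference Cre minus Loxp of Nduf genes with standard errors (limma), with all 8 libraries (filled) and without Loxp 3 and 4 (open); roles are separated by lines in the order core, peripheral arm, membrane arm, both arms, assembly factors, other. The median of the subunits was 0.47 with all libraries and 0.15 without those 2.

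Averaged over its genes, each class gave 1 value per library, the mean deviation from the gene means. For the 35 subunits it was 0.05, 0.25, 0.30 and 0.35 in Cre 5 to 8, and 0.01, 0.11, -0.49 and -0.57 in Loxp 1 to 4. For the 7 assembly factors it was -0.06, 0.21, 0.09 and 0.26 in Cre 5 to 8, and 0.05, 0.04, -0.26 and -0.33 in Loxp 1 to 4. Cre 5 was close to Loxp 1 and 2 for subunits and below them for assembly factors, Cre 6 to 8 were above them, and Loxp 3 and 4 were far below. For subunits the spread was 0.13 among the Cre libraries and 0.34 among the controls (SD, n = 4 each).

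Removing a smooth trend of each library on transcript length and GC content brought these values closer together. The subunit values were then -0.06, 0.16, 0.19 and 0.22 in Cre 5 to 8, and -0.02, 0.06, -0.25 and -0.30 in Loxp 1 to 4. The order of the libraries was nearly kept, and Cre 5 was then below Loxp 1. The median difference of the subunits was 0.24, with 34 of 35 above 0 (52.5% of tested genes) and 17 of 35 higher at an unadjusted p under 0.05 (11.9% of tested genes). With the trend removed and Loxp 3 and 4 left out, the median was 0.07, with 29 of 35 above 0 (49.9% of tested genes). Then 1 of 35, Ndufa5, was higher at an unadjusted p under 0.05 (3.75% of tested genes).

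**Figure D3:**
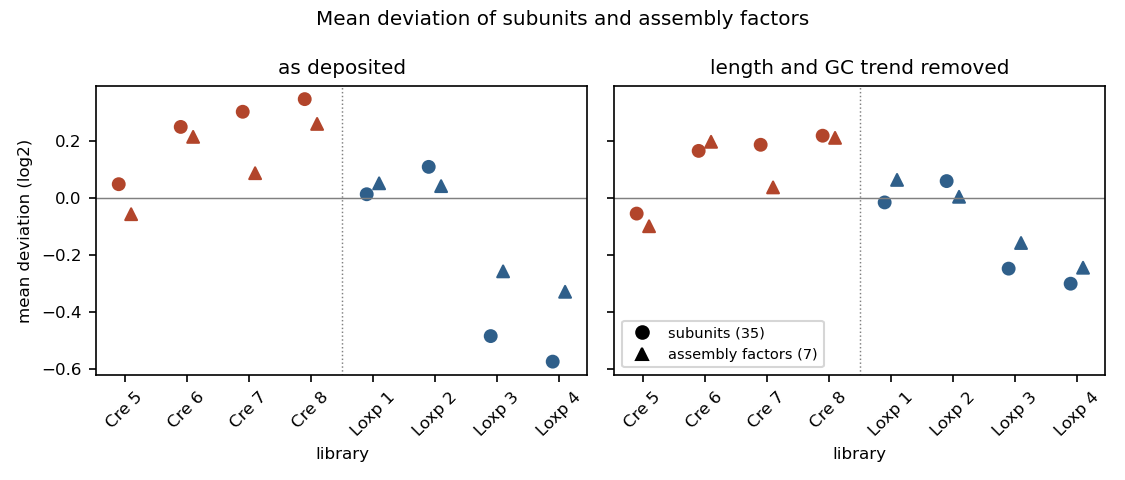
Mean deviation of the 35 subunits (circles) and the 7 assembly factors (triangles) in each library, in log2 units, as deposited (left) and after a length and GC trend was removed in each library (right); Cre in red, Loxp in blue. The subunits of Loxp 3 and 4 lay at -0.49 and -0.57 as deposited and at -0.25 and -0.30 with the trend removed.

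Subunit transcripts are short. Their median annotated length was 680 bases (315 to 2590), against 1451 bases for the assembly factors (556 to 3632) and 2324 bases for all tested genes. Over all tested genes with a length, longer transcripts had lower differences (Spearman rho -0.42 across 15567 genes, which share the same 8 libraries and are not independent). Among the 35 subunits rho was -0.30.

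Within each band of length the median of the subunits was above that of all tested genes, and these gaps were not tested. Up to 500 bases the median difference was 0.44 for 8 subunits and 0.33 for 635 tested genes. Between 500 and 1000 bases it was 0.53 for 18 subunits and 0.28 for 1959 tested genes. Between 1000 and 2000 bases it was 0.36 for 7 subunits, 0.29 for 5 assembly factors and 0.16 for 3966 tested genes. Above 2000 bases, where all tested genes had a median of -0.12, the 2 subunits Ndufa10 and Ndufs1 had a median of 0.02 and the assembly factor Ndufaf4 had -0.11. Without Loxp 3 and 4 the medians within bands were closer: up to 500 bases 0.12 for subunits and 0.10 for tested genes, and between 500 and 1000 bases 0.18 and 0.10. Between 1000 and 2000 bases they were 0.15 for subunits, 0.12 for assembly factors and 0.05 for tested genes. Above 2000 bases they were -0.02 for the 2 subunits, -0.09 for Ndufaf4 and -0.04 for tested genes.

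**Figure D4:**
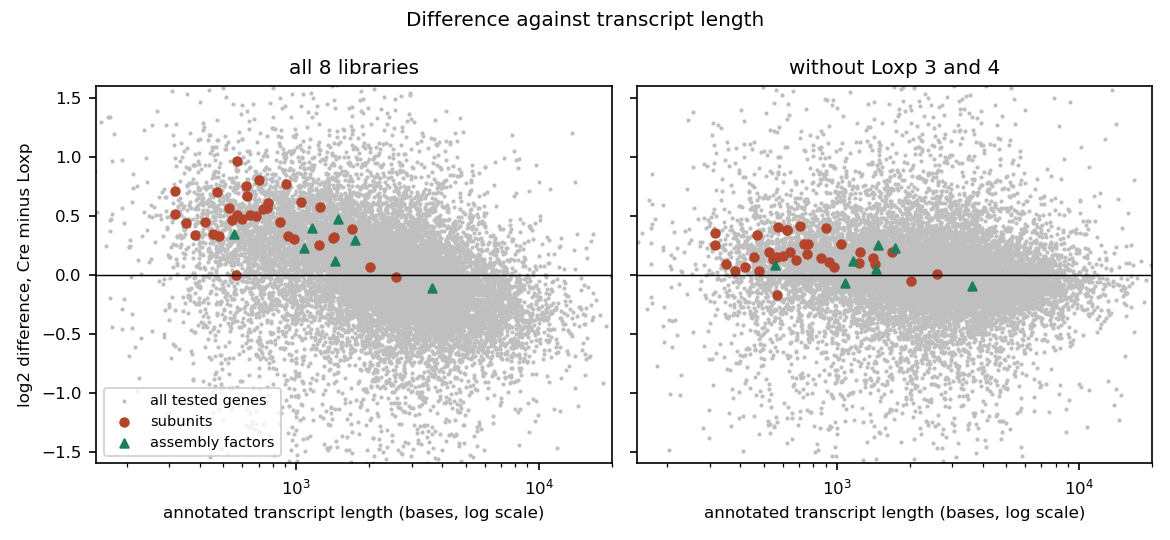
Log2 difference Cre minus Loxp against annotated transcript length (bases, log scale) for all tested genes (grey), subunits (red circles) and assembly factors (green triangles), with all 8 libraries (left) and without Loxp 3 and 4 (right); genes beyond the vertical limits are not drawn. The subunits sit at the short end, with a median length of 680 bases, where the grey cloud is above 0 in the left panel.

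The 7 core subunits encoded in the nucleus had a median difference of 0.33, 6 of 7 above 0 (50.3% of tested genes). Ndufv1 holds the flavin where NADH gives up its electrons. It had 36438, 48999, 41237 and 46536 normalized counts in Cre 5 to 8, against 38786, 41880, 30935 and 28022 in Loxp 1 to 4. Cre 5 lay below Loxp 1 and 2, so the groups overlapped, and the difference was 0.32 ± 0.14 (SE; adjusted p = 0.175, limma) and 0.09 without Loxp 3 and 4. Ndufv2, its neighbour with an iron-sulfur cluster, had 36760, 36965, 46026 and 41732 in Cre, against 35904, 38854, 28012 and 26858 in Loxp. Loxp 2 was above Cre 5 and 6, and the difference was 0.33 ± 0.14 (adjusted p = 0.151, limma) and 0.11 without Loxp 3 and 4.

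Ndufs1 (chr1:63143596-63176833, GRCm38), the largest core subunit, which carries further iron-sulfur clusters, was the exception among them. It had 25428, 33583, 31152 and 32831 normalized counts in Cre, against 28660, 32320, 31354 and 31966 in Loxp. Cre 5 was the lowest library, the other 7 lay close together, and Loxp 3 and 4 were not low. Its difference was -0.02 ± 0.11 (adjusted p = 0.919, limma) and 0.01 without Loxp 3 and 4, and its annotated transcript is the longest among the subunits.

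Ndufs7 carries the iron-sulfur cluster that hands electrons to ubiquinone. Ndufs7 (chr10:80249121-80256794) had 34118, 41562, 40057 and 39607 in Cre, against 34551, 33984, 20601 and 19350 in Loxp. Only Cre 5, which lay between Loxp 1 and Loxp 2, overlapped the controls, and the difference was 0.57 ± 0.18 (adjusted p = 0.0881, limma) and 0.18 without Loxp 3 and 4.

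Ndufs3, a core subunit near the ubiquinone site, had the highest estimate of the core, 0.62 ± 0.19 (adjusted p = 0.0853, limma), and 0.26 without Loxp 3 and 4. It had 24283, 36124, 30338 and 36378 normalized counts in Cre, against 24965, 27582, 16250 and 15629 in Loxp. Cre 5 was below Loxp 1 and 2 and the other Cre libraries were above all controls. Of the 50-base stretches of its transcripts, 35.8% also occur in other annotated genes, so its reads may have been split or lost. Ndufs8, which carries a pair of iron-sulfur clusters, had 14665, 15382, 16941 and 17627 in Cre, against 15188, 15598, 11348 and 10738 in Loxp. The groups overlapped at Cre 5 and 6, with a difference of 0.31 ± 0.14 (adjusted p = 0.171, limma) and 0.07 without Loxp 3 and 4. The 7 core subunits had a median of 0.11 without those 2 libraries, with 0 at an unadjusted p under 0.05 in limma (4.36% of tested genes).

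The 9 accessory subunits of the peripheral arm had a median difference of 0.51, with all estimates at or above 0.00, and of 0.19 without Loxp 3 and 4. Ndufa5 (chr6:24518666-24528013) had the smallest p of all 44 genes. It had 19069, 23152, 23310 and 25472 normalized counts in Cre, against 16920, 18558, 11141 and 10565 in Loxp. Every Cre library was above every control, though Cre 5 exceeded Loxp 2 only slightly. The difference was 0.71 ± 0.18 (adjusted p = 0.0796, limma; exact two-sided permutation p = 0.0286, the smallest that 4 against 4 can give). It was 0.35 ± 0.12 without Loxp 3 and 4 and 0.45 with the length and GC trend removed.

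Ndufa2, a small subunit with a thioredoxin-like fold, had the largest estimate of all 44 genes. Its normalized counts were 13060, 21076, 17508 and 23305 in Cre, against 12675, 15108, 6818 and 5954 in Loxp. Cre 5 was below Loxp 2, and Loxp 3 and 4 were far below the other 6 libraries. The difference was 0.96 ± 0.30 (adjusted p = 0.0904, limma), and 0.40 ± 0.22 without Loxp 3 and 4.

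Of the other peripheral subunits, Ndufv3, next to the flavin site, had groups that did not overlap: 11165 to 12811 in Cre, against 6523 to 10925 in Loxp, with a difference of 0.51 ± 0.16 (adjusted p = 0.0853, limma) and 0.19 without Loxp 3 and 4. Ndufs6, which binds zinc, differed by 0.51 and by 0.15 without them, and Ndufa7 by 0.57 and by 0.20 without them. Ndufs4, whose loss in mice causes a fatal encephalopathy, differed by 0.38 and by 0.19 without them. Ndufa6, of the LYR protein family, differed by 0.34 and by 0.03 without them. Ndufa9, which binds a nucleotide cofactor next to the ubiquinone site, differed by 0.25 and by 0.10 without them.

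Ndufa12 (chr10:94198720-94221443) had another order of libraries than most subunits. It had 17332, 10999, 16229 and 11542 normalized counts in Cre, against 16472, 14575, 12553 and 11833 in Loxp. Cre 6 and 8 were the 2 lowest of the 8 libraries, Cre 5 was the highest, and the controls lay within the range of the Cre group. The difference was 0.00 ± 0.16 (adjusted p = 0.999, limma), -0.17 without Loxp 3 and 4 and -0.24 with the trend removed. Without Cre 6 and 8 it was 0.29 ± 0.16, on the side of the other subunits. Of its 50-base stretches, 53.8% also occur in the annotated gene Gm15920, so its reads may have been shared with that copy.

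Ndufa12 has a paralog among the assembly factors, Ndufaf2, which sits at the same place in late intermediates until Ndufa12 takes over. Ndufaf2 had 957, 873, 979 and 1160 normalized counts in Cre, against 942, 922, 706 and 593 in Loxp. Cre 6, low for Ndufa12, was also the lowest Cre library here, but Cre 8, also low for Ndufa12, was the highest of all 8. The difference was 0.35 ± 0.16 (adjusted p = 0.186, limma) and 0.08 without Loxp 3 and 4. On the opposite strand, B230220B15Rik overlaps 65.6% of the exon bases of Ndufaf2, and no source used here says whether counting went by strand.

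The 18 accessory subunits of the membrane arm had a median difference of 0.51 (0.06 to 0.80), and 17 of 18 were higher at an unadjusted p under 0.05 (13.6% of tested genes). The median was 0.17 without Loxp 3 and 4, and 4 of 18 were then higher at that threshold (4.36% of tested genes). Ndufb7, Ndufb11 and Ndufb5 had the smallest p among them. Ndufb7, at the intermembrane face of the arm, had 14950, 19738, 19780 and 23607 normalized counts in Cre, against 14697, 14962, 8989 and 8723 in Loxp. Cre 5 fell between Loxp 1 and Loxp 2 and the other Cre libraries were above all controls, with a difference of 0.75 ± 0.19 (adjusted p = 0.0796, limma) and 0.38 without Loxp 3 and 4.

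Ndufb11, an X-linked subunit with a single membrane helix, had 31415, 46961, 40378 and 50632 normalized counts in Cre, against 29595, 34050, 18813 and 18753 in Loxp. Cre 5 was below Loxp 2, the other Cre libraries were above all controls, and the difference was 0.77 ± 0.20 (adjusted p = 0.0796, limma) and 0.39 without Loxp 3 and 4. Ndufb5 had 19995, 29673, 25928 and 33294 in Cre, against 18463, 22782, 13680 and 13858 in Loxp. As in Ndufb11, Cre 6 and 8 were the highest libraries and Cre 5 was below Loxp 2, with a difference of 0.67 ± 0.18 (adjusted p = 0.0796, limma) and 0.38 without Loxp 3 and 4.

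Ndufb9, another LYR protein, had the largest estimate of the membrane arm, 0.80 ± 0.22 (adjusted p = 0.0796, limma), and 0.41 without Loxp 3 and 4. On the same strand, Gm49356 overlaps 19.5% of the exon bases of Ndufb9 and shares 23.4% of its 50-base stretches, so its reads may have been split or lost. Ndufb10, with 30189 to 36174 in Cre against 17966 to 29358 in Loxp, and Ndufs5, with 12015 to 13770 in Cre against 7245 to 11730 in Loxp, had groups that did not overlap. They differed by 0.56 and 0.47, and by 0.26 and 0.16 without Loxp 3 and 4. Of the 50-base stretches of Ndufs5, 35.6% also occur in BC002163. At the other end, Ndufa10, a membrane-arm subunit of the nucleoside kinase fold with the second longest transcript, differed by 0.06 ± 0.11 (adjusted p = 0.742, limma) and by -0.05 without Loxp 3 and 4. Its normalized counts were 24132 to 28664 in Cre and 23302 to 28051 in Loxp, with Loxp 3 and 4 just below the lowest Cre library.

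Ndufab1, the mitochondrial acyl carrier protein, which sits in both arms and also serves fatty acid and lipoate synthesis, had 11862 to 14712 normalized counts in Cre, against 9139 to 12284 in Loxp. Loxp 2 lay within the Cre range, and the difference was 0.31 ± 0.12 (adjusted p = 0.133, limma) and 0.14 without Loxp 3 and 4. Of its 50-base stretches, 31.2% occur in other genes, among them the pseudogene row left out.

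The Cre libraries also differed among themselves. In 11 of 35 subunits (31.4%, against 22.6% of tested genes) Cre 6 and 8 were both above Cre 5 and 7, with Ndufc2, Ndufa2, Ndufb5 and Ndufb9 at a gap of 0.56, 0.55, 0.47 and 0.46. In 5 of 35 (14.3%, against 19.7% of tested genes) they were both below, Ndufa12 with a gap of -0.57 and Ndufb2 with -0.37 among them. Without Cre 6 and 8 the median of the subunits was 0.43, with 6 of 35 at an unadjusted p under 0.05 (5.67% of tested genes) and 9 of 35 with no overlap (13.4% of tested genes).

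Among the assembly factors, Ndufaf3 and Ndufaf4 act as a pair in building the part around the ubiquinone site. Their values ran alike among the Cre libraries, Cre 5 lowest and Cre 6 and 8 highest, but not in Loxp 3 and 4. The order in Cre was not particular to this pair, since Ndufaf5 and Ndufaf7 had it too. Cre 6 and 8 were both above Cre 5 and 7 in 4 of the 7 assembly factors (57.1%), against 22.6% of tested genes. Ndufaf3 (chr9:108565537-108567434) had 1479, 1795, 1587 and 1985 normalized counts in Cre, against 1471, 1389, 1046 and 1045 in Loxp. All Cre libraries were above all controls, Cre 5 by a narrow margin, and the difference was 0.48 ± 0.15 (adjusted p = 0.0839, limma; exact two-sided permutation p = 0.0286) and 0.25 without Loxp 3 and 4. Ndufaf4 (chr4:24898083-24905001) had 3407, 4696, 4119 and 4443 in Cre, against 4417, 4407, 4314 and 4712 in Loxp. The 4 controls lay close together, Loxp 3 and 4 included, and Cre 5 was the lowest. The difference was -0.11 ± 0.11 (adjusted p = 0.558, limma), the lowest of the 44 genes, -0.09 without Loxp 3 and 4 and 0.09 with the trend removed. Its transcript is the longest of the 7.

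A pair of assembly factors are enzymes that modify core subunits. Ndufaf5 hydroxylates an arginine of Ndufs7. It had 3353, 4976, 3928 and 4637 normalized counts in Cre, against 3790, 3903, 2622 and 2580 in Loxp. Cre 5 was below Loxp 1 and 2 and Cre 6 and 8 were the highest, with a difference of 0.40 ± 0.17 (adjusted p = 0.145, limma) and 0.12 without Loxp 3 and 4. Ndufaf7 is an arginine methyltransferase that acts during assembly. It had 1545, 2408, 1582 and 2271 in Cre, against 1624, 1649, 1480 and 1492 in Loxp. Cre 6 and 8 were far above all other libraries and Cre 5 and 7 lay within the controls, with a difference of 0.29 ± 0.15 (adjusted p = 0.223, limma) and 0.22 without Loxp 3 and 4.

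Ndufaf1, part of the complex that builds the membrane arm, had 3946, 3602, 4392 and 3853 normalized counts in Cre, against 3819, 3798, 3653 and 3303 in Loxp. The groups overlapped, and the difference was 0.11 ± 0.10 (adjusted p = 0.495, limma) and 0.05 without Loxp 3 and 4. Ndufaf6, needed early in assembly, had 1909, 2205, 2163 and 2106 in Cre, against 2210, 2197, 1574 and 1353 in Loxp. Loxp 1 was the highest library and Loxp 3 and 4 the lowest, so the difference of 0.22 ± 0.15 (adjusted p = 0.365, limma) was -0.07 without those 2.

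Ndufa4 was long counted as a subunit of complex I and is now placed in complex IV. It had 45484, 47225, 52878 and 48550 normalized counts in Cre, against 42344, 46164, 32965 and 32888 in Loxp. Loxp 2 exceeded Cre 5, so the groups overlapped, and the difference was 0.34 ± 0.13 (adjusted p = 0.119, limma) and 0.13 without Loxp 3 and 4. Its paralog Ndufa4l2 had 1313, 1032, 1518 and 1317 in Cre, against 1203, 1037, 892 and 637 in Loxp. Cre 6 was below Loxp 1 and 2, and the difference was 0.48 ± 0.18 (adjusted p = 0.121, limma) and 0.20 without Loxp 3 and 4.

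Per kilobase of annotated transcript, Ndufa4 had the highest level of the 44 genes, 107376 normalized counts per kilobase in Cre and 85376 in Loxp. The length used is that of 1 transcript per gene, and the ranking depends on that choice. It is 452 bases for Ndufa4 and 315 bases for Ndufc1, whose annotated exons together cover 1381 and 1495 bases. Subunits had a median level of 27701 per kilobase in Cre and 19152 in Loxp, and the assembly factors had 1784 in Cre and 1422 in Loxp. Among subunits the highest level was that of Ndufc1, 73227 per kilobase in Cre and 51834 in Loxp, and the lowest was that of Ndufb2, 3082 in Cre and 2437 in Loxp. The lowest subunit in Cre lay just under the highest assembly factor, Ndufaf5, with 3622 per kilobase in Cre and 2765 in Loxp. Of the Ndufb2 stretches of 50 bases, 24.4% occur in other genes.

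Assembly genes without the Nduf name were nearer to 0. Of 11, 8 had an estimate above 0 (50.3% of tested genes), with a median of 0.13. At an unadjusted p under 0.05, 2 were higher (13.6% of tested genes) and 1 was lower (13.3%), shares near the background. Tmem261, also called Dmac1, which helps to build the distal membrane arm, had the smallest p. It had 3427, 3433, 3607 and 3449 normalized counts in Cre, against 2815, 2934, 2194 and 2065 in Loxp. The 4 Cre libraries lay close together above all controls, with a difference of 0.49 ± 0.13 (adjusted p = 0.0796, limma) and 0.28 without Loxp 3 and 4. Timmdc1, which works on the membrane arm, differed by 0.29 and was the other one higher at that threshold, and Tmem186 differed by -0.24 and was the one lower. Nubpl, which delivers iron-sulfur clusters, differed by 0.24. The remaining 7 (Foxred1, Atp5sl, Tmem70, Ecsit, Tmem126b, Aifm1 and Acad9) lay between -0.09 and 0.16.

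The 7 core subunits encoded by mitochondrial DNA were on the other side of 0. All 7 had an estimate below 0 (7777 of 15657 tested genes), with a median of -1.23, and 4 were lower at an unadjusted p under 0.05 (13.3% of tested genes). ND5, a proton-pumping subunit, had the smallest p, with 234511, 128944, 214006 and 95056 normalized counts in Cre, against 292727, 237208, 646234 and 579760 in Loxp. Every Cre library was below every control, Cre 6 and 8 most of all, and Loxp 3 and 4 were the highest (-1.35 ± 0.39, adjusted p = 0.0853, limma). Together the 7 made up 3.49%, 1.40%, 2.90% and 1.02% of all normalized counts in Cre 5 to 8, against 3.44%, 2.88%, 4.82% and 4.42% in Loxp 1 to 4. The 35 nuclear subunits made up 0.973%, 1.18%, 1.17% and 1.25% in Cre 5 to 8, against 0.946%, 1.05%, 0.720% and 0.657% in Loxp 1 to 4. In these sums Loxp 3 and 4 were thus lowest for the nuclear and highest for the mitochondrial transcripts, and Cre 6 and 8 were lowest for the mitochondrial ones. ND3 and ND6 differed by only -0.24 and -0.25 and were highest in Cre 5 and Cre 7. In both, Loxp 3 and 4 lay close to Loxp 1 and 2 (0.03 and -0.04). Without Loxp 3 and 4 the mitochondrial genes had a median of -0.74, and without Cre 6 and 8 a median of -0.20 with 2 of 7 above 0.

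**Figure D5:**
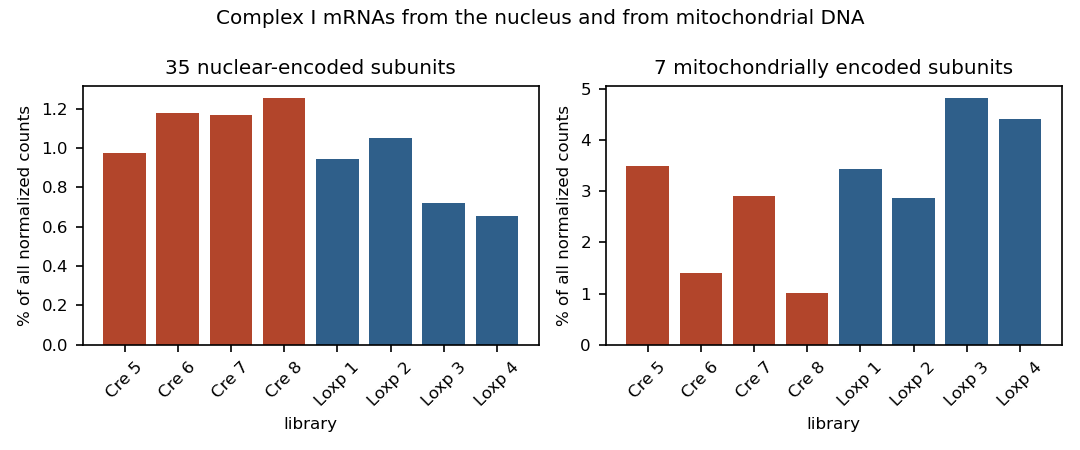
Summed share of all normalized counts, in percent, of the 35 nuclear subunits (left) and the 7 mitochondrially encoded subunits (right) in each library; Cre in red, Loxp in blue, on separate vertical scales. Loxp 3 and 4 have the lowest nuclear shares, 0.720% and 0.657%, and the highest mitochondrial shares, 4.82% and 4.42%.

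The nuclear genes of complexes II to V were much like the subunits of complex I. Of 42, 38 had an estimate above 0 (50.3% of tested genes) and 32 were higher at an unadjusted p under 0.05 (13.6%), with a median of 0.49, against 0.47 for complex I subunits. Their median was 0.18 without Loxp 3 and 4, and 5 of 42 were higher at an unadjusted p under 0.05 (4.36% of tested genes). Their counts and medians lay close to those of complex I. Of 9 genes for regulators of such transcripts, 4 had an estimate above 0 (50.3% of tested genes), with a median of -0.05. At an unadjusted p under 0.05, 1 was higher (13.6% of tested genes) and 2 were lower (13.3%). Gabpa, of the factor bound to CCGGAAG, had the smallest p, with 1876, 2209, 1905 and 1903 normalized counts in Cre, against 2089, 2211, 2874 and 2699 in Loxp. Cre 6 reached the level of Loxp 2, and the difference was -0.31 ± 0.12 (adjusted p = 0.136, limma) and -0.13 without Loxp 3 and 4. Yy1, the other one lower, differed by -0.20 ± 0.09 (adjusted p = 0.182, limma). Every Cre library was below every control (1106 of 15657 tested genes were lower with no overlap). It differed by -0.17 without Loxp 3 and 4 and by 0.07 with the trend removed. Esrra, of the oestrogen-related receptors, was the one higher, by 0.36 ± 0.15 (adjusted p = 0.146, limma), and by 0.08 without Loxp 3 and 4.

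Markers of other cells were checked in the same libraries. The summed level of 8 markers of slow and oxidative fibres ranged between 74227 and 160550 normalized counts in Cre. In Loxp it ranged between 75760 and 238680, highest in Loxp 3. The largest of the 8 was Myh2, a myosin of fast oxidative fibres, with 50422 to 80137 in Cre and 58594 to 143500 in Loxp. Myh7, the slow myosin, had only 954 to 6883 in Cre and 1787 to 15188 in Loxp, so the sum is not a measure of slow fibres. The 6 heart markers summed to 10322 in Cre 8 and to between 794 and 1483 in the other 7 libraries, with the atrial gene Myl7 at 1124 in Cre 8 and at 0 in the other 3 Cre libraries. Without Cre 8 the median of the subunits was 0.45. Of 8 macrophage markers, 7 were higher in Cre at an unadjusted p under 0.05 (13.6% of tested genes), with summed levels of 11898 to 19108 in Cre and 7579 to 11690 in Loxp. Of 7 fibro-adipogenic markers, 4 were, with 162110 to 193510 in Cre and 122440 to 163330 in Loxp. Without Loxp 3 and 4, 6 of the 8 macrophage and 3 of the 7 fibro-adipogenic markers were higher at that threshold (4.36% of tested genes). The median differences were then 0.47 and 0.25, against 0.57 and 0.35 with all libraries. The 6 brown adipocyte markers summed to 37137 to 47279 in Cre and 20337 to 37676 in Loxp. Most of this sum was 1 gene, Cox8b, a complex IV subunit, with 33213 to 43634 in Cre and 18024 to 35681 in Loxp. Cox8b was also the 1 marker of the 6 higher at that threshold (0.59 ± 0.19). Of the 6, 5 had an estimate above 0, and Ppargc1a had -0.19. Ucp1, which defines brown fat, had 1458 and 885 normalized counts in Cre 5 and 8, 16.8 in Cre 6 and 0 in Cre 7, against 12.7, 12.1, 133 and 0 in Loxp 1 to 4. The 6 white adipocyte markers summed to 25092 to 46760 in Cre and 17643 to 35986 in Loxp. Most of this sum was Fabp4, with 21174 to 35872 in Cre and 12305 to 24555 in Loxp. Fabp4 was the 1 marker of the 6 higher at that threshold (0.75 ± 0.21). The rest lay between -0.15 (Lep) and 0.41 (Retn), with Adipoq at 0.18. Without Loxp 3 and 4, 4 of the 6 had an estimate below 0. In muscle taken whole, fewer cells of a type and less RNA per cell cannot be told apart, and the part of these cells in the Nduf values was not tested.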

How the data were processed

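RNA of 8 white quadriceps samples was sequenced, and the deposited table holds log2(normalized count + 1) per gene and sample, on a log2 scale. The tools listed are STAR, HTSeq, DESeq2, cutadapt and FastQC, with the build GRCm38, per the submitters' processing notes, without versions, order or strand setting. All values (100%) were whole reads within 0.1 once divided by the value of 1 read in their library, which gave the read totals; 3 reads equal 2.04 to 3.87 normalized counts. Read totals cover counting error only. Replicate libraries were checked for duplicates: chi-square per gene was 35.4 to 265 within groups, far above sampling noise.

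The main test was limma 3.58.1 (R 4.3.3; eBayes with trend and robust settings) on the log2 values of 15657 genes (mean over libraries of 10 or more normalized counts), with Benjamini-Hochberg adjustment over all of them; all 44 Nduf genes passed the filter. An exact two-sided permutation test over samples was added for single genes. Transcript lengths, overlaps and shared 50-base stretches came from GENCODE M21 (GRCm38), promoters from RefSeq (GRCm38.p6). The length of a gene was that of 1 transcript, the lower median among its basic protein-coding transcripts where it had any. Names stored as dates were restored for 27 genes. The fit was tested on simulated data. Genes were named by role, and library values given for core subunits, assembly factors, Ndufa4, Ndufa4l2, Ndufa12, members below 0, the 4 accessory subunits of smallest p, and the gene of smallest p in each other list; 1 member is not reported singly here, and Ndufa2 was added for its estimate after its values were seen. The members and all lists were chosen with earlier results of these data known. Alternatives covered pseudocount, filter, scaling, eBayes settings, sample weights, recovered reads, the trend on length and GC, and left-out libraries; leaving out Cre 6 and 8 was added after seeing the data.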

Additional observations from a re-analysis of the deposited data

Results flagged for a closer look

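Each of the 44 genes was checked in both groups for a library far from its group's other 3, in 88 groups in all, and 1 was found. The cut-off flags about 1 group in 20 by chance, so 1 flag in 88 groups is no more than chance gives. It was Ndufb3, an accessory subunit of the membrane arm, in the Cre group. Cre 5 had 11525 normalized counts, and Cre 6 to 8 had 14620, 14602 and 14767. The gap below Cre 6 to 8 was 0.955 of the range of the group. The controls Loxp 1 to 4 had 11224, 11863, 8068 and 6256, so Cre 5 lay between Loxp 1 and Loxp 2.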

How the results depend on the processing

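Under 22 alternative settings the 44 differences were recomputed 968 times: 889 kept their direction and their side of an adjusted p of 0.05, 58 passed it, and 21 changed sign; 35 of 44 genes never changed sign. The 58 came from sample weights (15; their estimation did not converge) and from leaving out Loxp 1 (20) or Loxp 2 (23). Members past an adjusted p of 0.05 numbered 15 with sample weights and 0 to 23 with 1 library left out. Over all genes, 2 passed with a filter of 1, with no filter, with equal totals and without Cre 6 and 8, 5 with the trend removed, 7 with plain eBayes, 1201 with sample weights, and 1 to 2048 with 1 library left out. Subunits higher at an unadjusted p under 0.05 numbered 5 without Loxp 3 and 4 (4.36% of tested genes), 17 with the trend removed (11.9%) and 1 with both (3.75%). They numbered 6 without Cre 6 and 8 (5.67%), and 19 to 32 with 1 library left out (1315 to 2510 of 15657 tested genes). For assembly factors these were 0, 1, 0 and 0, with 1 under plain eBayes (1845 of 15657 tested genes) and 1 to 3 with 1 library left out. Subunits higher with no overlap numbered 0 with equal totals (916 of 15657 tested genes) and with recovered reads (920 of 15657). They numbered 1 with the trend removed (783 of 15567), and 1 with Loxp 3 and 4 left out as well (1230 of 15567). There were 9 without Cre 6 and 8 (13.4% of tested genes) and 4 to 22 with 1 library left out (1052 to 1875 of 15657). Without Loxp 3 and 4 the median was 0.15 for subunits and 0.082 for assembly factors, and 0.074 and 0.031 with the trend removed as well. With 1 library left out the medians were 0.35 to 0.59 and 0.20 to 0.36.

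Ndufa12 was -0.049 under quantile normalization, -0.17 without Loxp 3 and 4, -0.24 with the trend removed, -0.24 with both, 0.29 without Cre 6 and 8, and -0.11 to 0.11 with 1 library left out (below 0 without Loxp 3, Loxp 4, Cre 5 or Cre 7). Ndufs1 was 0.0064 without Loxp 3 and 4, 0.069 with the trend removed, 0.026 with both, and -0.067 to 0.067 with 1 library left out (above 0 without Cre 5). Ndufaf4 was 0.089 with the trend removed. Without Loxp 3 and 4, Ndufa10 was -0.051 and Ndufaf6 -0.074. With both, Ndufa10 was -0.055, Ndufaf6 -0.12, Ndufa3 -0.0082, Ndufb6 -0.045, Ndufa6 -0.052 and Ndufs8 -0.030. The cause of these changes was not tested. No paired analysis was possible because the Cre and Loxp libraries share no replicate number. With 4 libraries a group, the exact test cannot go below 0.0286, and the table gives no batch or extraction date.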
